A study of Mus musculus with 40 samples.

Results

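The 10 genes described here carry out peptide presentation by MHC class II in the mouse: *H2-Aa*, *H2-Ab1*, *H2-Eb1*, *H2-DMa*, *H2-DMb1*, *H2-DMb2*, *H2-Oa*, *H2-Ob*, *Cd74* and *Ciita*. They were chosen by name, for their role, though with earlier results of these data known. All 10 were listed in both expression tables, among 17646 genes in males and 17223 in females (17038 in both). PolyA RNA from hearts of 40 mice was sequenced, 1 library per mouse, with a separate table for each sex. CM-Il11-Tg mice were heterozygous for α-MHC-MerCreMer (MCM), which puts a tamoxifen-dependent Cre under a cardiomyocyte promoter, and for *Rosa26-Il11*, so that tamoxifen switches on *Il11* in cardiomyocytes. Tamoxifen was given from 8 weeks of age and hearts were taken 1, 3 or 6 weeks later (induced hearts). Controls, labelled WT, are described in the methods as age-matched littermates that were also heterozygous for MCM, lacked *Rosa26-Il11* and, by the labels, received tamoxifen. Their titles read baseline and give no week, so the time at which control hearts were taken is not known from the labels. The same controls of each sex served for 1, 3 and 6 weeks. Age and time since tamoxifen therefore cannot be told apart from time under *Il11* in the changes against control. A further group of CM-Il11-Tg hearts received no tamoxifen (uninduced) and therefore differed from controls in both the transgene and the drug. Both parent lines were C57BL/6, N for *Rosa26-Il11* and J for MCM. Each group had 4 libraries of each sex, except that male controls and male 6-week hearts had 3, because 2 male libraries carry labels that contradict each other and were placed in no group.

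MHC class II molecules are pairs of an α and a β chain that display peptides from endocytosed proteins to CD4+ T cells. The new pair is held in the endoplasmic reticulum by the invariant chain Cd74, which is cut down by lysosomal proteases until a short fragment is left in the groove. H2-DM then exchanges that fragment for antigenic peptide, and H2-O, found mainly in B cells, inhibits H2-DM. Ciita is the transactivator without which the pathway is hardly transcribed: it binds no DNA itself and is recruited by RFX, CREB and NF-Y factors sitting on the X and Y boxes of class II promoters. In the heart, class II is found mostly on macrophages and dendritic cells, and interferon gamma can induce it in other cell types.

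Of the 10 genes, 8 lay within 224335 bases of chromosome 17 (GRCm39, 34311314 to 34535648, GENCODE vM39). *Ciita* was on chromosome 16 (10297923 to 10347694). The shared promoter elements were looked for because these members moved together across libraries. The window ran from 250 bases before to 50 bases after the start of the Ensembl canonical transcript and was read on both strands. The letters searched were those of an X box (AG, any 2 bases, AC, any 2 bases, ATG) and of a Y box (GATTGG). The G that ends the first can begin the second, but in no member did the matches overlap. The X letters were found in 6 of the 10 members against 2.86% of 21770 protein-coding starts, the Y letters in 7 against 18.2%, and both in 5 against 0.441%. These are matches of letters and not measured binding. Both boxes are features of class II promoters, so a higher share among the members was built into the search. The shares therefore describe the members and are not a test. The 120 bases before the start are printed for 6 members, with the matches in capitals: *H2-Ab1* (chr17:34482063-34482182, plus strand), *H2-Eb1* (chr17:34524693-34524812, plus strand), *H2-DMa* (chr17:34354440-34354559, plus strand) and *H2-Ob* (chr17:34457716-34457835, plus strand), which hold both boxes, *H2-Aa* (chr17:34506798-34506917, minus strand), which holds the Y letters only, and *Ciita* (chr16:10307396-10307515, plus strand), which holds neither.
H2-Ab1: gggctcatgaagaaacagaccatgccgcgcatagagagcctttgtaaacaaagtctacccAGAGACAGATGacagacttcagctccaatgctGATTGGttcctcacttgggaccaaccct
H2-Eb1: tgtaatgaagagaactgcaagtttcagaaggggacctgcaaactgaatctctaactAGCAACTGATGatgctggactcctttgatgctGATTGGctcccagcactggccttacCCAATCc
H2-DMa: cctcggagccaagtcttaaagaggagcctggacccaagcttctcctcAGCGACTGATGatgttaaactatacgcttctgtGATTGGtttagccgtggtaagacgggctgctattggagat
H2-Ob: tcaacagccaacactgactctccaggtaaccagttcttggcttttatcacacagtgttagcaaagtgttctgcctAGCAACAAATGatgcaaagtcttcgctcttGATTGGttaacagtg
H2-Aa: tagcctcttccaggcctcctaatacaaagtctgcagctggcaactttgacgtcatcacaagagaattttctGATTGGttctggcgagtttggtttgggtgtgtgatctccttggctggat
Ciita: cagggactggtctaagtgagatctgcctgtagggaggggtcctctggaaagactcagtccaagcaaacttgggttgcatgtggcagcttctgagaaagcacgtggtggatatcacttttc
The first bases of the X and Y matches lay 32 bases apart in *H2-Ab1* and *H2-Eb1*, 33 in *H2-DMa* and 30 in *H2-Ob*. *H2-Ob*, with a pair spaced much like that of *H2-Ab1* and *H2-Eb1*, had the smallest log2 change of the 10 at 6 weeks in both sexes, as given below. Whether the spacing bears on the change was not tested. In *H2-Oa* the matches were 97 bases apart. The start used matters for *H2-DMb1*: the GENCODE start gave X letters only, while the RefSeq start (GRCm38.p6) gave both, 33 bases apart. It matters for *H2-DMa* as well, which held no X letters in the window at either of its RefSeq starts, and so no pair.

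The libraries held between 16663513 and 65333832 reads on listed genes in males and between 19147947 and 30929192 in females, and values are in CPM as deposited. *Il11* checked the labels: it was at 0 to 0.166 CPM in the placed controls of either sex, from 16.5 to 23.3 in male and from 15.5 to 49.1 in female uninduced hearts, and at 328 or above in every induced library. Uninduced hearts therefore carried *Il11* reads without tamoxifen. Several libraries stood apart in ways that touch these genes. Female uninduced replicate 4 had class II values above the rest of its group, female 3 weeks replicate 3 had high B cell markers, and male 6 weeks replicate 4 had a log2 expression slope of 0.351 per 10 points of GC content, against -0.119 to 0.138 in the other placed male libraries. Several results that rest on them are also given without them. Without male 6 weeks replicate 4, all 10 members still rose against control at 6 weeks in males. The log2 fold changes were then 2.99 for *H2-Aa*, 2.84 for *H2-Ab1* and 2.14 for *H2-DMa*.

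The classical α and β chains, *H2-Aa*, *H2-Ab1* and *H2-Eb1*, rose at every week after induction in both sexes. At 6 weeks they had, with *Cd74*, the 4 largest log2 changes of the 10 genes. *H2-Aa* and *H2-Ab1* encode the chains of I-A, and *H2-Eb1* the β chain of I-E. In replicate order, male *H2-Aa* was at 34, 38.6 and 56.2 CPM in controls, 63.9, 68.9, 57.5 and 56.0 in uninduced hearts, 107, 126, 87.3 and 137 at 1 week, 389.8, 139, 183 and 218 at 3 weeks and 322, 350.4 and 411 at 6 weeks. Female *H2-Aa* was at 32.8, 28.6, 29.9 and 28.7 CPM in controls, 52.3, 59.9, 53.9 and 131 in uninduced hearts, 125, 142, 76.9 and 98.0 at 1 week, 280.5, 219, 327 and 255 at 3 weeks and 407, 374, 336 and 353 at 6 weeks. All induced libraries lay above all controls of their sex, and at 3 weeks male replicate 1 was as high as the libraries of 6 weeks while the other 3 were below all of them. The log2 fold change against control, on log2(CPM + 0.5) and by limma over all genes, was 1.41 ± 0.25 SE (adjusted p = 2.15e-04) at 1 week and 3.08 ± 0.26 SE (adjusted p = 4.21e-08) at 6 weeks in males. The female values were 1.83 ± 0.22 SE (adjusted p = 2.33e-06) and 3.59 ± 0.22 SE (adjusted p = 8.91e-11). In bulk hearts, more cells of a type and more RNA per cell cannot be told apart, here or in the results that follow. *H2-Ab1* in males ranged from 29.5 to 49.7 CPM in controls, from 47.3 to 58.4 in uninduced hearts, from 64.7 to 103 at 1 week, from 111 to 321 at 3 weeks and from 166 to 258 at 6 weeks. In females it ranged from 19.3 to 27.0 CPM in controls, from 43.2 to 105 in uninduced hearts, from 55.6 to 115 at 1 week, from 168 to 235 at 3 weeks and from 270.0 to 346 at 6 weeks. Its log2 fold change at 6 weeks was 2.64 (adjusted p = 1.02e-06) in males and 3.69 (adjusted p = 1.70e-10) in females. *H2-Eb1* in males ranged from 30.2 to 49.1 CPM in controls, from 53.2 to 62.0 in uninduced hearts, from 84.9 to 133 at 1 week, from 129 to 381 at 3 weeks and from 294 to 322 at 6 weeks. In females it ranged from 22.4 to 25 CPM in controls, from 48.8 to 122 in uninduced hearts, from 72.3 to 137 at 1 week, from 216 to 317 at 3 weeks and from 346 to 407 at 6 weeks, with no overlap between any pair of neighbouring times after induction. At 6 weeks it had the largest log2 fold change of the members in both sexes, 3.11 (adjusted p = 4.54e-08) in males and 3.96 (adjusted p = 4.31e-11) in females. The annotated spans of *H2-Aa* and *H2-Eb1* overlap on opposite strands. The kit keeps the strand, but whether the counting used it is not given in the sources used here, so reads in the overlap may be shared. *H2-Ea*, the α chain of I-E, was in neither table, so the values of *H2-Eb1* cannot be read as levels of I-E. *H2-Eb2*, a further β chain gene, was listed but too low to be tested, at 0 to 1.01 CPM in the placed libraries.

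**Figure D1:**
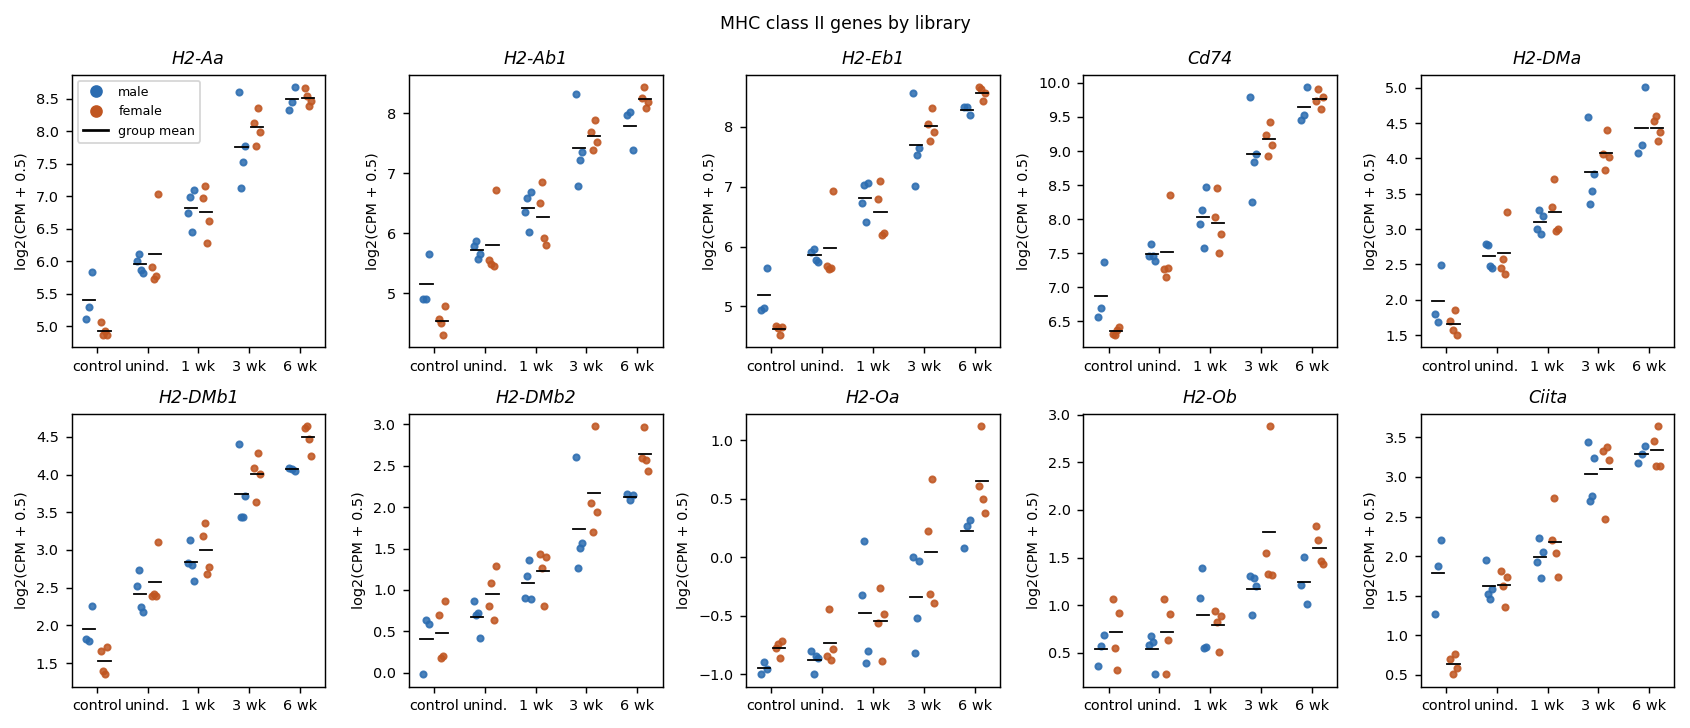
Expression of the 10 genes, 1 point per library, as log2(CPM + 0.5) against group (control, uninduced, and 1, 3 and 6 weeks after tamoxifen), with bars at the group mean; the sexes come from separately scaled tables. For the chains and *Cd74*, all induced libraries sit above the controls of their sex, and 1 female uninduced library sits above its group.

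*Cd74*, the invariant chain, followed the classical chains. Male *Cd74* was at 94.4, 103 and 164 CPM in controls, 176, 198, 175 and 167 in uninduced hearts, 244, 282, 191 and 355 at 1 week, 885, 305, 456 and 498 at 3 weeks and 705, 741 and 982 at 6 weeks. Female *Cd74* was at 79.4, 78.2, 82.7 and 85 CPM in controls, 142, 154, 155 and 326 in uninduced hearts, 261, 351, 181 and 219 at 1 week, 605, 486, 689.5 and 545 at 3 weeks and 849, 966, 787 and 885 at 6 weeks. The groups at 1 week and 6 weeks did not overlap in either sex, and the 4 female controls spanned less than 10 CPM. Against control the log2 fold change was 1.15 ± 0.27 SE (adjusted p = 0.00252) at 1 week, 2.08 ± 0.27 SE (adjusted p = 8.88e-06) at 3 weeks and 2.77 ± 0.28 SE (adjusted p = 5.35e-07) at 6 weeks in males. For females the values were 1.59 ± 0.21 SE (adjusted p = 6.79e-06), 2.82 ± 0.21 SE (adjusted p = 1.88e-09) and 3.41 ± 0.21 SE (adjusted p = 8.08e-11). *Cd74* lies on chromosome 18 (60936899 to 60945731). Per kilobase of exon it was the most abundant member in every group, with a group mean of 32.3 CPM per kilobase in female controls and 346.6 at 6 weeks. The 3 classical chains came next at 85.6 to 147 CPM per kilobase in females at 6 weeks, and *H2-Oa*, *H2-Ob* and *Ciita* were the lowest, at 0.469 to 0.884.

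The subunits of the peptide exchanger H2-DM also rose, at lower levels. *H2-DMa* (α chain) in males was at 2.96, 2.73 and 5.10 CPM in controls, 6.42, 6.34, 5.05 and 4.94 in uninduced hearts, 7.53, 9.13, 7.11 and 8.58 at 1 week, 23.4, 9.72, 11.1 and 13.3 at 3 weeks and 16.4, 17.7 and 31.7 at 6 weeks. Female *H2-DMa* was at 2.76, 2.47, 3.10 and 2.33 CPM in controls, 5.47, 4.95, 4.63 and 8.98 in uninduced hearts, 9.39, 12.6, 7.36 and 7.50 at 1 week, 16.1, 13.8, 20.6 and 15.7 at 3 weeks and 22.5, 23.7, 18.5 and 20.3 at 6 weeks. Male replicate 4 at 6 weeks was well above the other male libraries of that week, and the 4 female libraries at 6 weeks lay close together. *H2-DMb1* (β chain) ranged from 2.95 to 4.30 CPM in controls, from 4.03 to 6.14 in uninduced hearts, from 5.51 to 8.30 at 1 week, from 10.3 to 20.7 at 3 weeks and from 16.0 to 16.6 at 6 weeks in males. It ranged from 2.05 to 2.77 CPM in controls, from 4.72 to 8.09 in uninduced hearts, from 5.90 to 9.71 at 1 week, from 12 to 19.0 at 3 weeks and from 18.4 to 24.4 at 6 weeks in females. *H2-DMb2*, a near copy of it, ranged from 0.487 to 1.06 CPM in controls, from 0.836 to 1.33 in uninduced hearts, from 1.35 to 2.06 at 1 week, from 1.91 to 5.59 at 3 weeks and from 3.74 to 3.96 at 6 weeks in males. In females it ranged from 0.629 to 1.33 CPM in controls, from 1.06 to 1.94 in uninduced hearts, from 1.25 to 2.21 at 1 week, from 2.74 to 7.37 at 3 weeks and from 4.90 to 7.30 at 6 weeks. Reads common to the 2 copies may have been split or dropped in counting, so their separate values are uncertain. At 6 weeks the log2 fold changes of *H2-DMa*, *H2-DMb1* and *H2-DMb2* were 2.44 (adjusted p = 2.02e-06), 2.11 (adjusted p = 7.34e-07) and 1.72 (adjusted p = 7.24e-05) in males. In females they were 2.78 (adjusted p = 2.10e-10), 2.96 (adjusted p = 7.30e-11) and 2.16 (adjusted p = 4.04e-07). *H2-DMa* and *H2-DMb1* rose at all 3 weeks in both sexes, as did *H2-DMb2*, with its smallest change at 1 week: 0.67 (adjusted p = 0.0433) in males and 0.74 (adjusted p = 0.0241) in females. That call was lost when any of 7 male libraries or any of 5 female ones was left out (adjusted p up to 0.215 and 0.0817).

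The H2-O subunits, which oppose H2-DM, were scarce and moved late. *H2-Ob* (β chain) was at 0.787, 0.985 and 1.11 CPM in controls, 0.996, 1.10, 1.03 and 0.709 in uninduced hearts, 1.61, 2.12, 0.964 and 0.974 at 1 week, 1.97, 1.36, 1.94 and 1.80 at 3 weeks and 1.82, 2.33 and 1.52 at 6 weeks in males. Female *H2-Ob* was at 1.59, 0.968, 0.750 and 1.39 CPM in controls, 0.714, 1.59, 1.06 and 1.38 in uninduced hearts, 1.42, 1.26, 0.920 and 1.34 at 1 week, 2.42, 2.01, 6.85 and 2.00 at 3 weeks and 3.05, 2.71, 2.25 and 2.19 at 6 weeks. At 1 week the induced and control libraries overlapped in both sexes, and from 3 weeks they did not. Its log2 fold change was 0.35 (adjusted p = 0.192) at 1 week, 0.63 (adjusted p = 0.0312) at 3 weeks and 0.70 (adjusted p = 0.0215) at 6 weeks in males. The female values were 0.07 (adjusted p = 0.873), 1.05 (adjusted p = 0.00517) and 0.88 (adjusted p = 0.0125). The female 3-week library at 6.85 CPM (replicate 3) had a summed B cell marker level of 35.5 CPM, against 6.61 to 8.0 in the other 3 of that week, and also held the highest *H2-DMb2* of the female libraries, at 7.37 CPM. Without it, the female change at 3 weeks was 0.68 (adjusted p = 0.0165). The male calls of *H2-Ob* at 3 and 6 weeks were lost when any of 5 and any of 3 libraries was left out, with adjusted p up to 0.124 and 0.0838. *H2-Oa* (α chain) held 0 to 1 reads in each male control and 1 to 2 in each female control. At 6 weeks it held 20 to 32 reads in males and 26 to 39 in females, and its log2 fold change was 1.17 (adjusted p = 0.00149) and 1.43 (adjusted p = 2.25e-05). The added 0.5 CPM is several times its control level, so these values understate the change, and no linear fold is given. *H2-Oa* passed the filter on low values through induced libraries alone, with 0 of 7 male and 0 of 8 female control or uninduced libraries at 0.5 CPM. Counts of members are therefore also read without it.

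*Ciita*, the transactivator, rose in females at every week and in males from 3 weeks. Male *Ciita* was at 1.91, 3.18 and 4.10 CPM in controls, 3.36, 2.37, 2.24 and 2.51 in uninduced hearts, 3.31, 4.20, 2.79 and 3.63 at 1 week, 10.4, 6.00, 6.24 and 8.91 at 3 weeks and 8.57, 9.29 and 9.98 at 6 weeks. Female *Ciita* was at 1.12, 0.919, 1.2 and 0.998 CPM in controls, 2.57, 3.02, 2.07 and 2.83 in uninduced hearts, 4.09, 6.14, 3.60 and 2.82 at 1 week, 9.56, 5.02, 9.91 and 8.79 at 3 weeks and 10.4, 8.33, 12 and 8.32 at 6 weeks. In males the controls spanned a wide range that covered all but 1 of the 1-week libraries, and in females all uninduced and induced libraries were above all controls. At 1 week the log2 fold change was 0.20 ± 0.21 SE (adjusted p = 0.508) in males and 1.54 ± 0.20 SE (adjusted p = 7.77e-06) in females. By 6 weeks *Ciita* had risen in both sexes, with log2 fold changes of 1.5 ± 0.23 SE (adjusted p = 6.24e-05) and 2.71 ± 0.20 SE (adjusted p = 1.70e-09). At 3 weeks they were 1.25 ± 0.21 SE (adjusted p = 2.41e-04) and 2.46 ± 0.20 SE (adjusted p = 9.70e-09).

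Counted over the members, 7 of 10 rose in males at 1 week, 9 at 3 weeks and 10 at 6 weeks, against 18.9%, 13.2% and 16.2% of the 16931 genes tested that were higher by the same rule (adjusted p under 0.05). In females 8, 10 and 10 rose, against 15.3%, 16.8% and 21.7% of 16956. Without *H2-Oa* the counts were 7, 9 and 9 of 9 in males and 8, 9 and 9 of 9 in females. No member fell in any of these 6 comparisons by limma, edgeR or DESeq2. The members that did not pass at 1 week were *H2-Oa*, *H2-Ob* and *Ciita* in males and *H2-Oa* and *H2-Ob* in females. At 1, 3 and 6 weeks the median log2 fold change of the 10 was 1.00, 1.81 and 2.27 among males, and 1.56, 2.47 and 2.87 among females. The median over all genes tested ranged from -0.024 to 0.019 in these 6 comparisons. In each sex, all induced libraries lay above all controls for 7 members at 1 week, against 22% of genes in males and 16.5% in females. For all 10 members this held at 3 weeks (18.4% and 18.9% of genes) and at 6 weeks (20.4% and 19.5%), and without *H2-Oa* it held for 9 of 9.

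**Figure D2:**
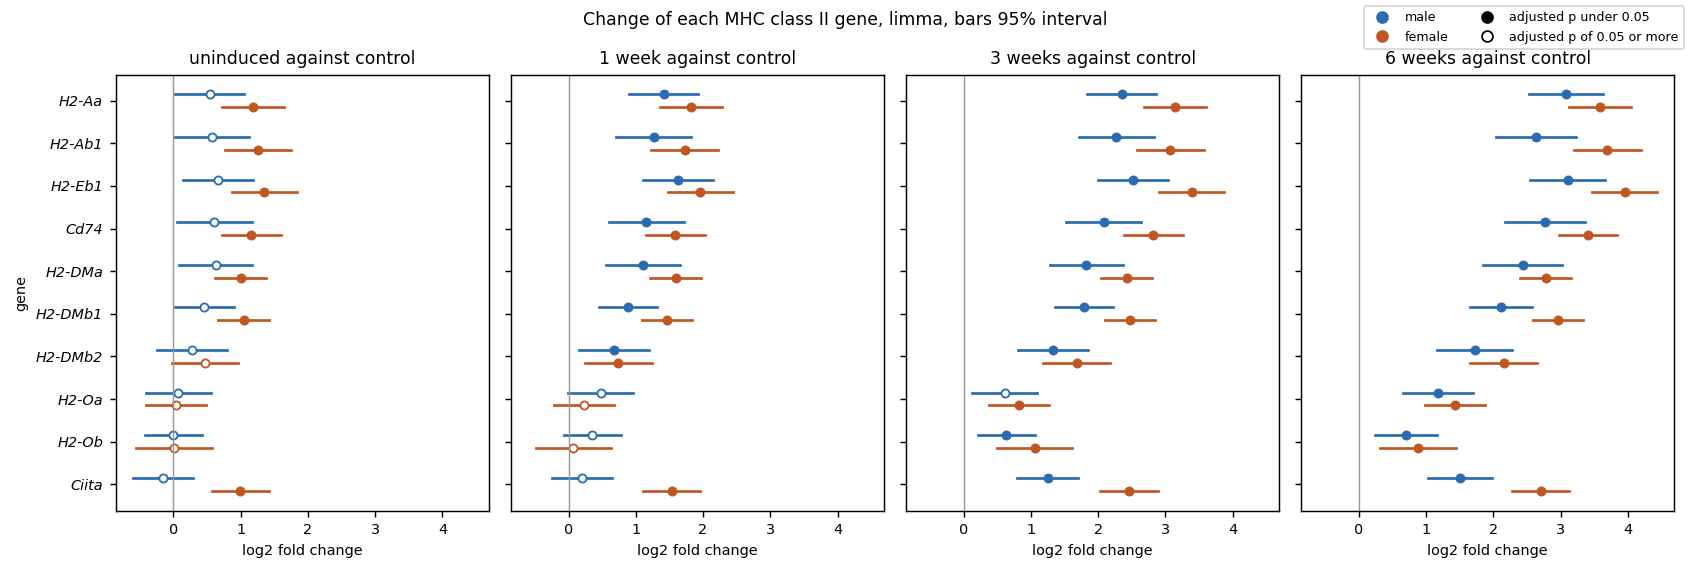
Log2 fold change of each gene against control of the same sex (x axis) in uninduced hearts and at 1, 3 and 6 weeks, with 95% intervals from limma; filled points have an adjusted p under 0.05. The points move to the right from 1 to 6 weeks, and the chains and *Cd74* lie furthest right at 6 weeks, from 2.64 to 3.96.

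Class II expression rose further after the first week, both in males and in females. From 1 to 6 weeks, 7 members rose in males, where 0.130% of genes were called higher, and 9 in females, where 0.891% were. In males these were the 3 classical chains, *Cd74*, *H2-DMa*, *H2-DMb1* and *Ciita*, and in females all members except *H2-Ob*. *H2-Aa* changed by 1.67 (adjusted p = 0.00750) on the log2 scale in males and 1.76 (adjusted p = 1.50e-04) in females, and *Ciita* by 1.30 (adjusted p = 0.0177) and 1.17 (adjusted p = 0.00344). The male count rested on single libraries. It was 1 without 1 week replicate 3, 4 without 1 week replicate 4, 2 without 6 weeks replicate 3 and 0 without 6 weeks replicate 4, the library with the GC slope, where the change was 1.57 for *H2-Aa* (adjusted p = 0.102). Every male 6-week library was nevertheless above every male 1-week library for 8 members, against 4.55% of genes, and in females for all 10, against 4.09%. Leaving aside *H2-Oa*, 8 of 9 members were called from 1 to 6 weeks in females and 7 of 9 in males, and the female groups did not overlap for 9 of 9. Between 1 and 3 weeks, 5 members rose in females (the chains, *Cd74* and *H2-DMb1*, 0.165% of genes). In males limma and edgeR called 0 of 10, with 0.0118% of all genes higher by limma. DESeq2 called 6, with 0.763% of genes higher, and 8 had an unadjusted p under 0.05, against 16.0% of genes. All 3-week libraries lay above all 1-week libraries for 5 members in males (4.15% of genes) and 8 in females (4.62%). The female count was 1 without 3 weeks replicate 3 or 1 week replicate 3, and 3 without 1 week replicate 4. Between 3 and 6 weeks, 0 members passed in either sex by limma, edgeR or DESeq2. Limma called 0% of genes higher over that interval, and DESeq2 0.00591% in males and 0.467% in females. Of the members, 5 in each sex had an unadjusted p under 0.05, against 6.33% of genes in males and 15.2% in females. All 6-week libraries lay above all 3-week libraries for 1 member in males, *H2-Oa* (2.45% of genes), and for 4 in females (3.98%). The change of *Cd74* over that interval was 0.69 (adjusted p = 0.759) in males and 0.59 (adjusted p = 0.217) in females.

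Uninduced female hearts already had more class II RNA than controls. In them 7 of 10 members were higher, against 2.41% of genes: the classical chains, *Cd74*, *H2-DMa*, *H2-DMb1* and *Ciita*. Female *H2-Eb1* was at 25, 24.3, 22.4 and 24.7 CPM in controls and 48.8, 50.8, 49.3 and 122 in uninduced hearts, with a log2 difference of 1.35 ± 0.23 SE (adjusted p = 0.00176). All uninduced females lay above all controls for the same 7 members (5.13% of genes), and replicate 4 stood above the rest of its group. Its values were 131 CPM for *H2-Aa*, 105 for *H2-Ab1*, 122 for *H2-Eb1* and 326 for *Cd74*, against highest values of 59.9, 46.5, 50.8 and 155 in the other 3. Its *Ciita* (2.83 CPM) and its summed macrophage markers (488 CPM) were within the ranges of the other 3 (2.07 to 3.02 and 382 to 523). Its *Il11* was the lowest of the group, at 15.5 CPM, and its summed B cell and dendritic cell markers were the lowest too, at 4.37 and 16.9 CPM. Without this library the count was again 7, and the log2 difference of *H2-Eb1* was 1.03 (adjusted p = 0.00138) and that of *Cd74* 0.88 (adjusted p = 0.00262). In uninduced male hearts, limma, edgeR and DESeq2 called 0 of 10 members higher or lower, against 0.561% of genes called higher by limma. Unadjusted p was under 0.05 for 6 (10.6% of genes), with *H2-Eb1* at 0.67 (adjusted p = 0.327) and *Cd74* at 0.61 (adjusted p = 0.430). In males all uninduced libraries lay above all controls for 2 members (8.16% of genes). The transgene and the absence of tamoxifen cannot be told apart in this comparison, and the age of the uninduced mice is not given in the labels.

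Set against uninduced rather than control hearts, which shares the induced libraries with the comparisons above, fewer members passed at 1 week. In males 2 members rose (12.1% of genes), *H2-Aa* with 0.87 (adjusted p = 0.0106) and *H2-Eb1* with 0.96 (adjusted p = 0.00631). In females 1 rose (8.32% of genes), *H2-DMa* with 0.59 (adjusted p = 0.0374), a call lost when any 1 of 5 libraries was left out, and without female uninduced replicate 4 the count was 6. At 3 weeks 9 members rose in males and 10 in females, against 10.6% and 10.6% of genes. At 6 weeks all 10 rose in both sexes, against 13% and 13.7%, with *H2-Aa* at 2.54 (adjusted p = 4.84e-07) in males and 2.41 (adjusted p = 9.85e-08) in females. Leaving aside *H2-Oa*, which passed the filter through induced libraries alone, 9 of 9 rose at 3 and at 6 weeks in each sex.

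Whether the change against control differed between the sexes was tested as an interaction over the 16627 genes tested in both tables, which were scaled separately. By limma, 0 of 10 members passed at 1, 3 or 6 weeks or in uninduced hearts (edgeR and DESeq2 were not run on this question), and 0% of genes were called higher. At an unadjusted p under 0.05 the members numbered 2, 6, 4 and 2 in that order, against 17.5%, 4.16%, 17.4% and 5.18% of genes. *Ciita* had the largest difference of the 10 at each time. Female minus male, it was 1.34 (95% interval 0.72 to 1.96, adjusted p = 0.0587) at 1 week, 1.21 (95% interval 0.59 to 1.83, adjusted p = 0.316) at 3 weeks and 1.2 (95% interval 0.56 to 1.85, adjusted p = 0.125) at 6 weeks. The difference of *Ciita* at 1 week passed when any 1 of 6 libraries was left out, with an adjusted p down to 0.0258. For *H2-Ab1* at 6 weeks it was 1.06 (95% interval 0.26 to 1.86, adjusted p = 0.178), and for *Cd74* 0.64 (95% interval -0.11 to 1.39, adjusted p = 0.362). The estimates were above 0 for all 10 members at 3 and 6 weeks and for 8 at 1 week. The 3 male controls enter every male change, and male control replicate 4 held the highest value of the 3 for 8 of the 10 members.

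The members did not rise in proportion. Ratios to *H2-Aa* within a library do not depend on how libraries are scaled, and were compared between all induced hearts and controls of 1 sex (11 induced against 3 control males, 12 against 4 females) by a two-sided exact permutation test of the mean log2 ratio. The 16 tests, 8 genes in 2 sexes, were added after the values had been seen and were adjusted together. In males *Cd74*, *H2-Ob*, *H2-DMb1* and *Ciita* shared an exact test p of 0.00549, the lowest that 11 against 3 libraries allow. These p-values therefore do not rank the genes. *Cd74* to *H2-Aa* was 2.67 to 2.92 in male controls and 2.76 to 3.04 in uninduced males, and from 2.12 to 2.60 over the induced males, without overlap. The geometric mean was 2.79 in controls and 2.29 in induced hearts (exact test, adjusted p = 0.0126). The female mean was 2.71 in controls and 2.27 in induced hearts (exact test, adjusted p = 0.0126), and the ranges overlapped. *H2-Ob* had the largest fall: its ratio to *H2-Aa* was 0.0227 in controls and 0.00824 in induced hearts (exact test, adjusted p = 0.0126) in males. The female ratio was 0.0376 in controls and 0.00942 in induced hearts (exact test, adjusted p = 0.0126). Uninduced hearts, which were not in these tests, were at 0.0127 to 0.0179 in males, below all controls (0.0197 to 0.0255). Uninduced females were at 0.0105 to 0.0266 (controls 0.0251 to 0.0486). Lower ratios of *H2-Ob* were thus not limited to induced hearts. The ratio of *Ciita* was 0.0697 in controls and 0.0308 in induced hearts (exact test, adjusted p = 0.0126) in males, and in females 0.0352 in controls and 0.0309 in induced hearts (exact test, adjusted p = 0.346), a fall that passed in males only, the difference between the sexes not being tested. *H2-Eb1* gained on *H2-Aa* in females, 0.804 in controls and 0.959 in induced hearts (exact test, adjusted p = 0.0195), a call lost without control replicate 1 or control replicate 3 (adjusted p = 0.0527 and 0.0639). In males its ratio was 0.853 in controls and 0.944 in induced hearts (exact test, adjusted p = 0.176), and without 6 weeks replicate 4 the induced mean was 0.970 and the gain passed (adjusted p = 0.0124). Uninduced males lay outside the control range for both genes: *Ciita* at 0.0344 to 0.0525 (controls 0.0563 to 0.0824) and *H2-Eb1* at 0.901 to 0.951 (controls 0.796 to 0.891). Uninduced females overlapped controls, with *Ciita* at 0.0217 to 0.0504 (controls 0.0321 to 0.0401) and *H2-Eb1* at 0.848 to 0.934 (controls 0.749 to 0.863). The ratio of *H2-Ab1*, partner of *H2-Aa* in I-A, was 0.837 in controls and 0.727 in induced hearts (exact test, adjusted p = 0.0513) in males and 0.763 in controls and 0.756 in induced hearts (exact test, adjusted p = 0.914) in females. The male fall of *H2-Ab1* passed without control replicate 3 (exact test, adjusted p = 0.0342). *H2-DMb1* lagged behind *H2-Aa* in both sexes, with ratios of 0.0805 in controls and 0.0552 in induced hearts (exact test, adjusted p = 0.0126) and 0.0796 in controls and 0.0624 in induced hearts (exact test, adjusted p = 0.0132), as did *H2-DMa* (adjusted p of 0.0480 and 0.0316 in the exact test). Leaving out 1 library ended the call of *H2-DMa* in 11 of 14 cases in males and in 3 of 16 in females (without control replicate 1, 2 or 3), with adjusted p up to 0.205 and 0.092, and that of *H2-DMb1* in females without control replicate 1 (adjusted p = 0.0527). *H2-DMb2* lagged in females (exact test, adjusted p = 0.0126), with an adjusted p of 0.0676 in males (0.0124 without 1 week replicate 3). In male 6 weeks replicate 4 the ratio of *H2-Ab1* was 0.405, against 0.736 to 0.888 in the other placed male libraries, and *H2-DMa* to *H2-DMb1* was 1.99, against 0.923 to 1.56. Exons of *H2-Ab1* and *H2-DMa* had a GC content of 55.5% and 55.6%, those of *H2-Aa* 46.5% and of *H2-DMb1* 53.0%. The unplaced male library with a control title and a 6-week description had ratios to *H2-Aa* of 0.449 for *H2-Ab1* and 0.692 for *H2-Eb1*, with a GC slope of -0.166, opposite in sign to that of 6 weeks replicate 4. The part of the GC slope in these ratios was not tested.

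**Figure D3:**
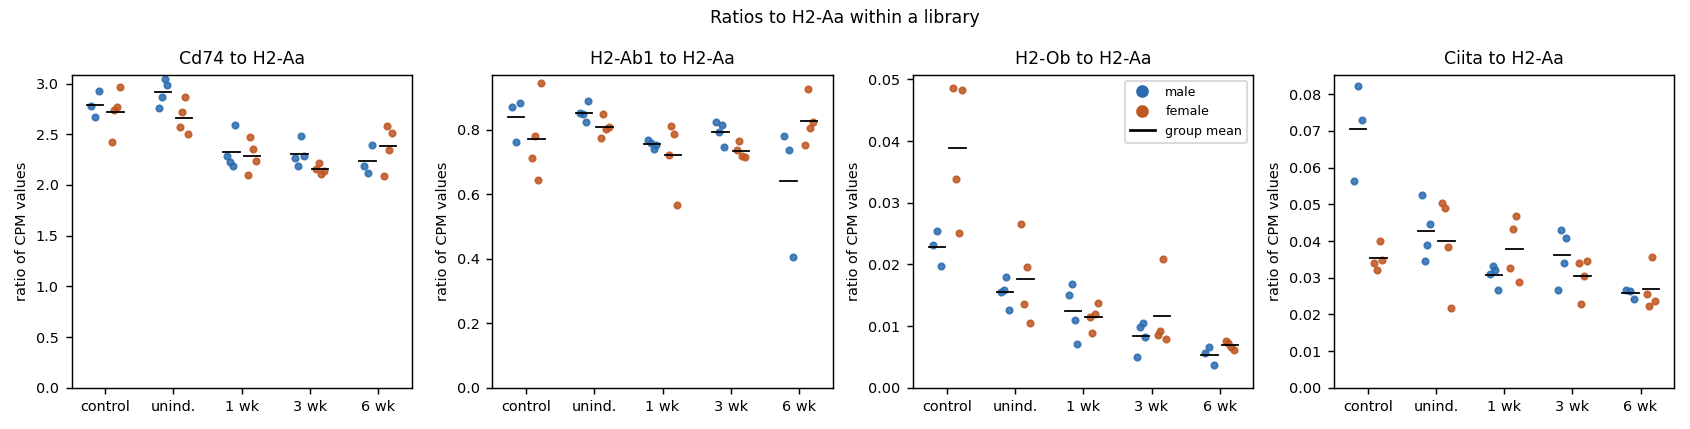
Ratio of *Cd74*, *H2-Ab1*, *H2-Ob* and *Ciita* to *H2-Aa* (CPM over CPM, axes from 0), 1 point per library, with bars at the group mean. Mean ratios of *Cd74* and *H2-Ob* are lower at each week than in controls of either sex, and 1 male 6-week library lies at 0.405 for *H2-Ab1*.

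Across libraries, the 4 most abundant members moved together. Pearson's r between pairs of *H2-Aa*, *H2-Ab1*, *H2-Eb1* and *Cd74* was 0.971 to 0.994 over the 18 placed male libraries and 0.993 to 0.998 over the 20 female ones, on log2(CPM + 0.5). Pairs with another member had r from 0.749 to 0.982 in males and from 0.713 to 0.995 in females. These values describe libraries that share group differences and their scaling. Among 16609 other genes, the 10 most like the mean of these 4 (by the lower of the male and female r) were *Itgax*, *Gm2a*, *Lyz1*, *Efemp1*, *Lag3*, *Irf5*, *Tifab*, *Pld4*, *Slamf8* and *Il10ra*, with lower r from 0.912 to 0.937. *Itgax*, which encodes CD11c of dendritic cells and some macrophages, was closest, and *Lag3* encodes a receptor for MHC class II.

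Markers of macrophages, which carry class II, were also higher in induced hearts, and their levels over time differed from those of class II. The 10 macrophage markers (*Adgre1*, *Csf1r*, *Cd68*, *C1qa* and others) summed to 224 to 361 CPM in male controls, 329 to 457 in uninduced males, 890.3 to 1027 at 1 week, 804 to 1129 at 3 weeks and 938 to 1307 at 6 weeks. The female sums in the same order were 216 to 278, 382 to 523, 957 to 1030, 1024 to 1304 and 1133 to 1309 CPM. Of the 10, 9 were higher than control at each week in males as in females. Over all genes tested, 18.9%, 13.2% and 16.2% were higher at 1, 3 and 6 weeks in males, and 15.3%, 16.8% and 21.7% in females. From 1 to 6 weeks 0 of them passed in either sex by limma (0 in males and 5 in females at an unadjusted p under 0.05). That is near the share of all genes called higher, 0.130% in males and 0.891% in females. The male count of class II members over that interval was itself 0 without 6 weeks replicate 4. The difference between the macrophage markers and class II was not tested. The sum of the chains and *Cd74* was 188 to 319.6, 428 to 727 and 1600 to 1854 CPM in male controls, at 1 week and at 6 weeks, and 154 to 165, 391 to 745 and 1738 to 2084 in females. Class II sum over macrophage sum was 0.782 to 0.901 in male controls, 0.480 to 0.725 at 1 week, 0.775 to 1.75 at 3 weeks and 1.28 to 1.71 at 6 weeks. Female ratios were 0.567 to 0.741, 0.408 to 0.723, 1.03 to 1.22 and 1.35 to 1.68. In both sexes all 6-week hearts lay above all controls and all 1-week hearts in this ratio, and in males all 1-week hearts lay below all controls. In male 3 weeks replicate 1 it was 1.75, and in female uninduced replicate 4 it was 1.40, against 0.576 to 0.815 in the other uninduced females. In uninduced females 8 of 10 macrophage markers were higher than control (2.41% of genes). In uninduced males 0 passed by limma (0.561% of genes higher), and 5 had an unadjusted p under 0.05 (10.6% of genes).

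**Figure D4:**
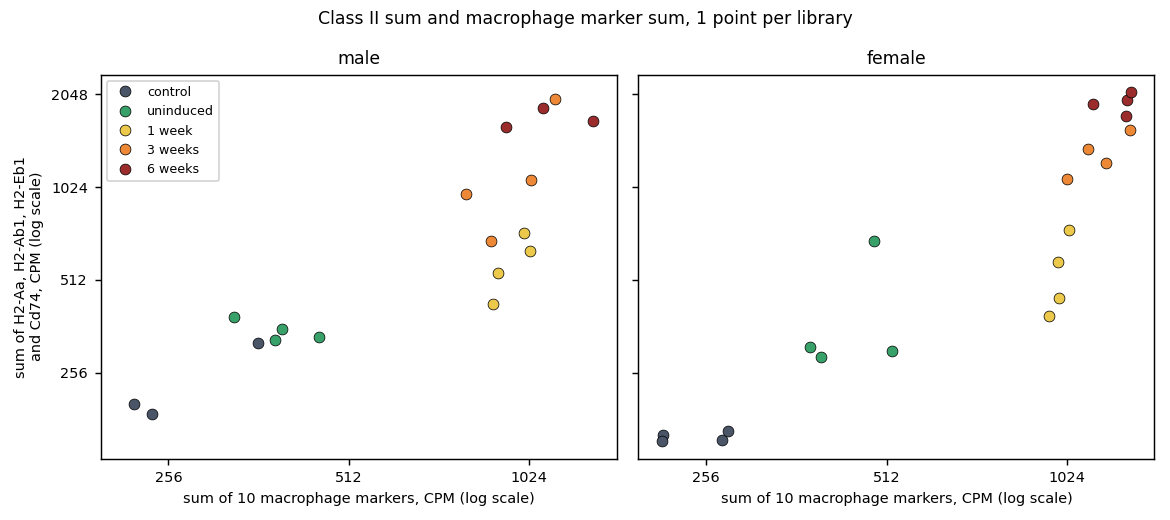
Sum of *H2-Aa*, *H2-Ab1*, *H2-Eb1* and *Cd74* (y axis) against the sum of 10 macrophage markers (x axis), both in CPM on log axes, 1 point per library, coloured by group. Libraries at 1, 3 and 6 weeks lie between 804 and 1309 CPM of macrophage markers and between 391 and 2084 CPM of class II. In females the macrophage sums also rose, from 957 to 1030 CPM at 1 week to 1133 to 1309 CPM at 6 weeks, without overlap.

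Dendritic cell markers were a mixed group. At 6 weeks 4 of 8 were higher than control in males and 6 of 8 in females, with 1 lower in females. Over all genes tested, 16.2% were called higher and 10.9% lower in males at that time, and 21.7% and 21.0% in females. *Cd209a*, a lectin of monocyte-derived dendritic cells, was at 0 to 0.147 CPM in male controls, 0.337 to 1.25 at 1 week, 0.819 to 3.78 at 3 weeks and 2.82 to 4.84 at 6 weeks. Female *Cd209a* was at 0 to 0.172, 0.460 to 0.967, 1.82 to 3.12 and 3.16 to 6.54 CPM. In both sexes all 6-week libraries were above all 1-week libraries. Between 1 and 6 weeks *Cd209a* was the 1 dendritic cell marker that rose in males (0.130% of genes), and *Cd209a*, *Itgax*, *Flt3*, *Ccr7* and *Siglech* rose in females (0.891%). *Itgax* and *Flt3* rose against control at every week in both sexes, while *Zbtb46*, a factor of classical dendritic cells that endothelium also expresses, fell in females at 6 weeks, with a log2 fold change of -0.71 (adjusted p = 0.00169). *Clec9a*, a marker of cross-presenting dendritic cells, did not pass in any week. B cell markers, relevant to *H2-Ob* and *H2-Oa*, summed to 7.08 to 7.65 CPM in male controls and 5.19 to 8.02 at 6 weeks, and to 5.05 to 8.48 and 4.85 to 6.4 in females. At 6 weeks *Cd79b* was the 1 of 5 B cell markers tested that was higher in males and the 1 of 7 in females. T cell markers summed to 1.91 to 4.35 and 8.30 to 9.70 CPM in males and 2.08 to 4.27 and 10.7 to 18.5 in females, with 1 of 5 tested (*Cd4*) higher in males and 6 of 8 in females. Cardiomyocyte markers, the check of the tissue, summed to 47569 to 57348 CPM in male controls, 28792 to 49257 at 1 week, 36063 to 47022 at 3 weeks and 29404 to 38483 at 6 weeks. Female sums were 31543 to 47946, 26603 to 40364, 31942 to 40453 and 27365 to 36877 CPM. In males all 3-week and 6-week hearts lay below all controls, while the female ranges overlapped. At 6 weeks 0 of 6 cardiomyocyte markers were higher and 1 lower in males (2 lower in females), 3 of 6 endothelial markers were lower in males and 4 in females, 5 of 6 fibroblast markers were higher in both sexes, 2 of 4 neutrophil markers tested were higher in both, and the 1 adipose marker tested did not pass in either. The B cell counts, the male T cell count and the counts of lower cardiomyocyte markers lay near the shares of all genes given above. The part of these cell types in the class II values was not tested.

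Other genes of the pathway were read from lists written by role. Of 10 genes of antigen processing, 8 were higher than control at 6 weeks in males (16.2% of genes) and 9 in females (21.7%). *Ctss*, the cathepsin that trims the invariant chain, was at 10.2 to 19.3 CPM in male controls and 48.9 to 90.2 at 6 weeks, and at 7.94 to 11.1 and 91.9 to 108 in females. Its log2 fold change was 2.25 (adjusted p = 1.20e-07) at 1 week and 2.29 (adjusted p = 2.20e-07) at 6 weeks in males, and 2.57 (adjusted p = 1.69e-11) and 3.3 (adjusted p = 2.08e-13) in females. *Ifi30*, the thiol reductase of lysosomes, rose by 2.24 (adjusted p = 3.55e-08) and 2.51 (adjusted p = 3.26e-10) at 6 weeks, and *Marchf1*, the ligase that removes class II from the surface, by 1.81 (adjusted p = 6.67e-05) and 2.15 (adjusted p = 3.15e-09). *Ctsd* did not pass in either sex. Between 1 and 6 weeks 0 of the 10 processing genes rose in males by limma (2 at an unadjusted p under 0.05) and 1 in females, beside 7 and 9 of the class II members. Over all genes tested, 0.130% were called higher in males and 0.891% in females. The male count of 7 class II members was 0 without 6 weeks replicate 4.

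Most genes of the factors and coactivators that act on class II promoters did not pass the test. Of 10 genes of that list, 1 rose and 1 fell in males at 6 weeks, and 2 rose and 1 fell in females. Over all genes tested, 16.2% were called higher and 10.9% lower in males at 6 weeks, and 21.7% and 21% in females. *Rfxank*, an RFX subunit, rose by 0.64 (adjusted p = 0.0130) in males and 0.41 (adjusted p = 0.00970) in females, while *Rfxap*, another RFX subunit, fell in males with -0.55 (adjusted p = 0.0183). *Nfyb*, an NF-Y subunit, rose in females with 0.36 (adjusted p = 0.00522), and *Nfyc*, another, fell with -0.71 (adjusted p = 6.08e-05). *Rfx5*, the DNA-binding subunit of RFX, was at 2.77 to 4.85 CPM in male controls and 3.85 to 5.58 at 6 weeks, with a log2 fold change of 0.19 (adjusted p = 0.519) in males and 0.03 (adjusted p = 0.904) in females. In the interferon gamma list, *Ifng* itself was in neither table. Of the other 9, 2 rose and 2 fell in males at 6 weeks, and 4 rose and 1 fell in females, against the same shares of all genes. *Irf8*, a factor of myeloid cells, rose by 1.25 (adjusted p = 4.91e-05) in males and 1.45 (adjusted p = 1.57e-09) in females, and *Socs1*, a feedback inhibitor, by 1.10 (adjusted p = 0.00628) and 1.75 (adjusted p = 2.63e-06). *Irf1*, a factor induced by interferon, was at -0.12 (adjusted p = 0.681) in males and 0.15 (adjusted p = 0.514) in females. *Ifngr2*, a receptor subunit, fell in both, with -0.43 (adjusted p = 0.0378) and -0.48 (adjusted p = 0.0169).

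Partners of class II at the contact with T cells gave 4 of 7 tested higher at 6 weeks in males (16.2% of genes) and 6 of 8 in females (21.7%). None was lower by limma (10.9% and 21.0% of genes). *Cd86*, a costimulatory ligand, rose by 1.44 (adjusted p = 9.63e-05) in males and 1.87 (adjusted p = 6.53e-09) in females, while *Cd80* was at 0.56 (adjusted p = 0.109) and 0.44 (adjusted p = 0.116) and *Cd40*, another costimulatory gene, at -0.07 (adjusted p = 0.860) in males. *Cd4*, the coreceptor for class II, which mouse myeloid cells can also express, rose by 2.02 (adjusted p = 6.75e-05) and 2.21 (adjusted p = 8.52e-08). *Lag3* was at 0.227 to 0.944 CPM in male controls and 4.52 to 6.60 at 6 weeks, and at 0.350 to 1.22 and 3.96 to 4.95 in females, and rose by 2.36 (adjusted p = 4.58e-07) and 2.13 (adjusted p = 1.03e-08).

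**Figure D5:**
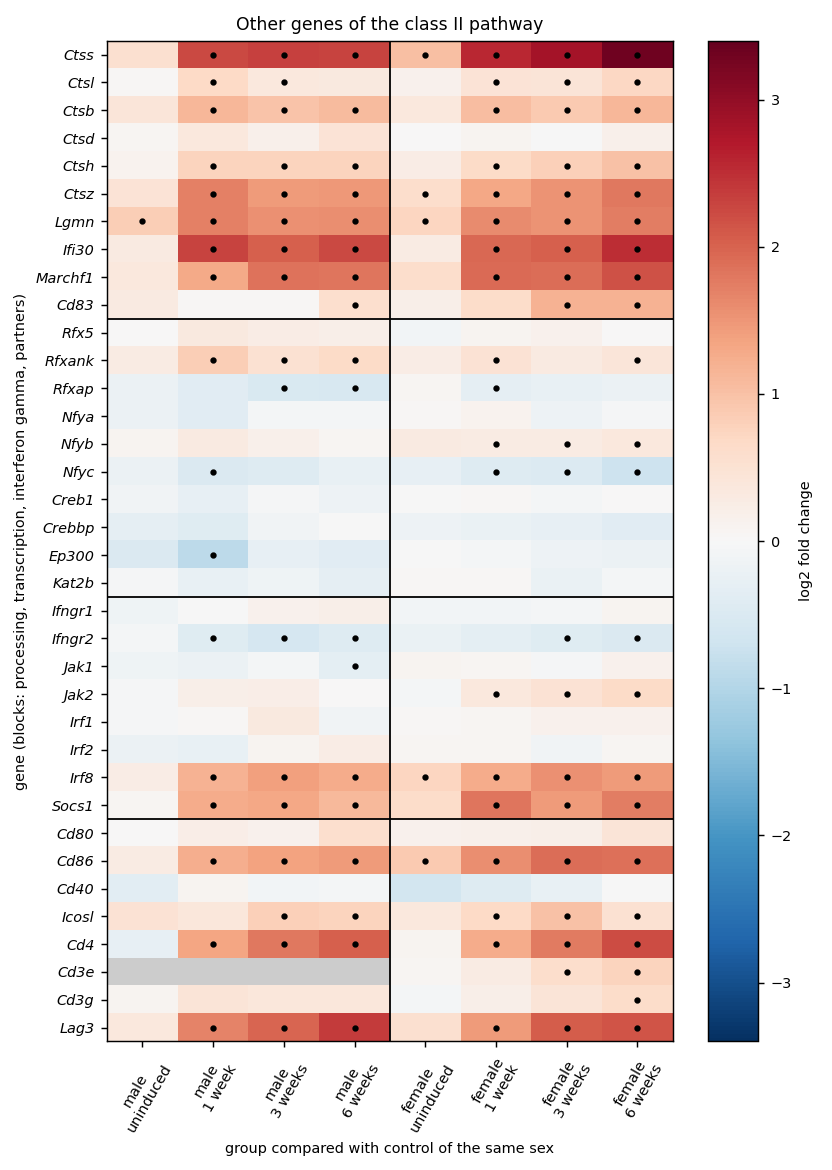
Log2 fold change against control of the same sex (colour scale) for listed genes of antigen processing, class II transcription, interferon gamma signalling and T cell contact, in uninduced hearts and at 1, 3 and 6 weeks. Dots mark an adjusted p under 0.05 and grey cells genes that were not tested; *Ctss* in females at 6 weeks has the largest change, at 3.3, and most genes of transcription carry no dot.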

How the data were processed

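PolyA RNA from 40 mouse hearts was measured in 2 tables, 1 for each sex. The authors aligned paired-end reads with STAR, counted them on genes and processed the counts with edgeR in R. The submitters' processing notes name featureCounts and GRCm39. The strand setting of the counting is not given in the sources used here. The signal values that the authors deposited are in CPM with a factor for each library: columns summed to between 817395 and 1196278, and 100% of values came within 0.001 of whole reads once divided by the library's smallest step. Genes with few reads had been removed before deposit. The number of per-library columns not mapped to a sample was 0 in each table.

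Groups came from the labels, and 38 of 40 libraries were placed (18 male, 20 female). Depth was 16663513 to 65333832 reads on listed genes in males and 19147947 to 30929192 in females. Genes at 0.5 CPM or more in at least 3 placed libraries were tested (16931 in males, 16956 in females) on log2(CPM + 0.5) by limma 3.58.1 (R 4.3.3), which allowed the variance to follow the mean, with no covariates and all groups of 1 sex in 1 fit. P-values were adjusted over all genes tested by the Benjamini-Hochberg method, with a threshold of 0.05. The scale understates changes of low genes. The change of females minus that of males was fitted over 16627 genes. Each library is a separate mouse. Ratios were compared by a two-sided exact permutation test with scipy 1.17.1.

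The alternatives were other pseudocounts and filters, another scaling, only the groups compared, a minimum fold change, the replicate number as a block, leaving out each library, and edgeR 4.0.16 and DESeq2 1.42.0 on the whole reads recovered from the steps. A correction for GC content was added after the data were seen. Replicate numbers did not pair libraries, since deviations from group means correlated between same-numbered libraries by a mean of only 0.0132 in males (-0.134 to 0.256) and 0.0255 in females (-0.342 to 0.563). The fit was tested on simulated data. Values of some listed genes are not reported here.

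The members and the marker and pathway lists were chosen with earlier results of these data known. Every member is named, and other genes are named from the pathway and marker lists or as the 10 whose values correlated best with the mean of *H2-Aa*, *H2-Ab1*, *H2-Eb1* and *Cd74*. Genes, exon lengths and promoters were read from GRCm39 with GENCODE vM39 using pysam 0.24.0, and figures were drawn with matplotlib 3.10.9.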

Additional observations from a re-analysis of the deposited data

Results flagged for a closer look

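In female uninduced hearts, replicate 4 stood apart from the other 3 in 5 of the 10 genes. It held 130.61 CPM of *H2-Aa* (others 52.3 to 59.9), 105.36 CPM of *H2-Ab1* (43.2 to 46.5), 121.59 CPM of *H2-Eb1* (48.8 to 50.8), 8.0924 CPM of *H2-DMb1* (4.72 to 4.85) and 326.24 CPM of *Cd74* (142 to 155). In males at 3 weeks, replicate 1 held 5.5919 CPM of *H2-DMb2* against 1.91 to 2.47 in the others. In females at 3 weeks, replicate 3 held 6.8478 CPM of *H2-Ob* against 2.00 to 2.42, beside the summed B cell marker level of 35.5 CPM. These were the samples farthest from their group by Dixon's test at the 95% level, found in 7 of 80 groups of values tested. Groups of 3 were not tested. Chance gives about 4 if the groups of values are independent, but 5 of the 7 came from 1 library, over genes that move together. That library was known to stand high before the test, so the 7 cannot be set against chance.

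A male library titled as a control and described as a 6-week heart, which entered no comparison, held a sum of 1641.4 CPM over the 10 genes. The placed male controls held 197 to 335 CPM and the placed male 6-week hearts 1647.5 to 1917.6.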

How the results depend on the processing

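Of 1384 recomputed counts of members, 1351 kept their direction and stayed within 1.5 times the reported count, among them all counts against control under each alternative run. The counts that moved were these. For male 1-week against uninduced hearts (2 members) the count was 5 with only the groups compared in the fit, 4 by DESeq2 and 0 with a log2 fold change of at least 1, and for females (1 member) it was 0, 2 and 0 under the same settings. Over all genes, those called higher under these settings numbered 2328 of 16931, 2218 of 16917 and 632 of 16931 in males. In females they numbered 940 of 16956, 1480 of 16944 and 474 of 16956. For 3 weeks against 1 week, DESeq2 gave 6 in males (0 by limma) and 9 in females (5 by limma), and for male 6 weeks against 1 week (7) only the groups compared gave 2. Of all genes, DESeq2 called 114 of 14947 higher in males and 57 of 16944 in females at 3 weeks against 1 week. With only the groups compared, 3 of 16931 genes were higher in males at 6 weeks against 1 week. Leaving out 1 library gave 0 to 8 members for male 6 weeks against 1 week (0 without 6 weeks replicate 4), 0 to 1 for male 3 weeks against 1 week, 1 to 7 for females in that comparison (1 without 1 week replicate 3 or 3 weeks replicate 3), 0 to 6 for female 1-week against uninduced hearts (6 without uninduced replicate 4) and 0 to 1 for the sex difference at 1 week. The cause was not tested.

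With the replicate number as a block, the female count for 1 week against uninduced hearts was 0 and no other count moved by over 1.5 times. The numbers do not pair the libraries.

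Of 3895 recomputed values of single members past the threshold, 138 were no longer past it and 0 changed sign. Signs changed only for values not past the threshold, 0.20 or less in size. *H2-Oa* in uninduced females was -0.0036 with the GC correction, and its 6-week sex difference was -0.053 with a pseudocount of 0.1. Leaving out 1 library gave ranges across 0 as follows. *Ciita* in males had -0.059 to 0.407 at 1 week and -0.41 to 0.053 uninduced. *H2-Ob* had -0.091 to 0.084 in uninduced males and -0.12 to 0.157 in uninduced females, -0.057 to 0.191 in females at 1 week against control and -0.083 to 0.179 against uninduced, and from 3 to 6 weeks -0.060 to 0.185 in males and -0.32 to 0.20 in females. *H2-Oa* had -0.063 to 0.083 in uninduced females and -0.014 to 0.334 in males from 1 to 3 weeks. The sex difference was -0.053 to 0.277 for *H2-DMb2* at 1 week, and in uninduced hearts -0.14 to 0.010 for *H2-Oa* and -0.12 to 0.160 for *H2-Ob*. The log2 ratio of *H2-Ab1* to *H2-Aa* in females had -0.095 to 0.088.

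Depth limits *H2-Oa* most, with at most 2 reads in any control library. Values of the sexes come from separately scaled tables, uninduced mice differ from controls in 2 factors, and 3 male libraries form the reference of every male change.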

Other observations

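The 2 male libraries with contradictory labels are given as values. The library titled as a control (replicate 2) and described as a 6-week heart held 376 CPM of *H2-Aa*, 168.9 of *H2-Ab1*, 260.5 of *H2-Eb1*, 781 of *Cd74* and 11.4 of *Ciita*, with 511 CPM of *Il11*. The library titled as a 6-week heart (replicate 2) and described as a control held 38.6, 32.0, 34.6, 111 and 1.43 CPM of the same 5 genes, with 0.597 CPM of *Il11*.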
